A study of Mus musculus with 6 samples.

Results

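The NF-κB subunits and their feedback inhibitors were examined as a group of 10 genes, taken by name from the 24965 genes of the deposited expression table. The 5 subunit genes were Nfkb1, Nfkb2, Rel, Rela and Relb, and the 5 inhibitor genes were Nfkbia, Nfkbib, Nfkbie, Nfkbiz and Tnfaip3. All 10 genes were found in the table. NF-κB subunits pair through a shared Rel homology domain and act as transcription factors in inflammatory and immune signaling. In resting cells the IκB proteins hold the pairs in the cytoplasm, and an upstream kinase complex marks IκB for degradation so that the pairs enter the nucleus. Several inhibitor genes are themselves targets of NF-κB, which gives negative feedback on the pathway. In blood-forming tissue the pathway is known for the response of progenitors, myeloid cells and B cells to inflammatory cytokines and microbial products.

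RNA was sequenced from 3 WT and 3 Hemgn-/- libraries of sorted donor cells, collected at 6 h post-BMT (bone marrow transplantation). Hemgn-/- donors were made with zinc finger nucleases on a C57BL/6 background and carry CD45.2, WT donors were their matched littermates, and donors were of both sexes, aged 8 to 10 weeks. In both groups donor bone marrow cells were injected into CD45.1 recipients that had received 9 Gy of radiation in a split dose. Neither group therefore holds untransplanted cells, and genotype is the only difference that the labels give between the groups. The cells were CD45.2-positive, lineage-negative and Sca-1-positive by the sample labels, and the methods of the study add c-Kit, which together define HSPCs. The sources do not say whether a library came from 1 recipient or from a pool.

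Hemgn itself was at 2.96 to 5.64 FPKM in WT and at 0.755 to 1.60 FPKM in Hemgn-/- libraries. FPKM is the number of sequenced fragments per kilobase of exon, scaled to a fixed number of fragments per library, and the depth recovered from the values was 23667997 to 28897334 fragments per library. The markers of the labelled cells were low. Kit lay between 5.50 and 7.24 FPKM, Ly6a (the gene of Sca-1) between 8.27 and 17.3 FPKM, and Mecom below 1 FPKM in all 6 libraries. Transcripts of cells that the lineage gate should remove were far higher, with Ngp, a neutrophil granule gene, at 26488 to 46692 FPKM. The libraries are therefore called sorted donor cells here. The summed FPKM of 10 neutrophil markers was 76654 to 82439 in WT and 50952 to 56561 in Hemgn-/- libraries, with 3 genes called lower and 1 called higher (limma, adjusted p under 0.05). Ngp was the largest part of that sum, with means of 44876 FPKM in WT and 27132 FPKM in Hemgn-/- libraries. The lower genes were Ngp, Ltf and Camp, and Cxcr2 was higher, with means of 278 and 415 FPKM. S100a8, S100a9, Retnlg, Lcn2, Mmp8 and Mmp9 were not called. The summed FPKM of 8 B cell markers was 1236 to 1293 in WT and 1523 to 1689 in Hemgn-/- libraries, with 4 of them higher and 0 lower. The 9 erythroid markers summed to 461 to 547 FPKM in WT and to 32.2 to 51.7 FPKM in the Hemgn-/- group, with 4 lower and 0 higher. The 10 macrophage and monocyte markers summed to 23007 to 25682 FPKM in WT and to 16530 to 20661 FPKM in the Hemgn-/- group, with 2 lower and 2 higher. That sum was mostly Lyz2, which neutrophils also express, and the other 9 genes summed to 430 to 496 FPKM and 365 to 457 FPKM, with 1 lower and 2 higher. The 10 HSPC markers summed to 35.9 to 41.8 FPKM and 43.2 to 51.7 FPKM. Of 8 eosinophil and basophil markers 0 were higher and 3 lower (663 to 775 FPKM summed in WT, 483 to 520 in Hemgn-/-). The lower genes were Epx, Prg2 and Prg3 of eosinophils, and Ear1 and Ear2 were not called. The basophil genes Mcpt8, Prss34 and Ms4a2 were not called, with log2 fold changes of −0.10, 0.059 and 0.45. Of 10 T and NK cell markers 3 were higher and 0 lower (210 to 231 and 245 to 273). Of 8 plasmacytoid dendritic cell markers 3 were higher and 0 lower (148 to 176 FPKM summed in WT, 167 to 204 in Hemgn-/-). Most of the plasmacytoid sum came from Bst2 (61.3 to 95.5 FPKM over the 6 libraries) and Ly6d (66.3 to 102 FPKM), which were not called. Conventional dendritic cell markers summed to 307 to 475 FPKM in WT and 359 to 423 FPKM in Hemgn-/-, which overlapped. That sum was mostly Cd24a (302 to 470 FPKM), and 3 of the 7 genes were under 1 FPKM in all libraries. Endothelial markers summed to 17.1 to 18.4 FPKM in WT and 18.7 to 22.5 FPKM in Hemgn-/-. No marker of any list was at 0 in any library. In bulk libraries a change in the share of a cell type cannot be told apart from a change of RNA per cell, and the part of these cells in the results below was not tested.

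The stretches before the transcription start of 5 members are shown because each holds a match to the NF-κB consensus site, the sequence that the subunits bind. Promoter windows of 250 bases before to 50 bases after the start (RefSeq, GRCm38.p6) were held for 7 of the 10 members, Nfkb2, Rel, Rela, Nfkbia, Nfkbib, Nfkbie and Tnfaip3. The 250 bases before the start are printed 5′ to 3′ on the strand of the gene, with the matches on either strand in capitals, and for Nfkb2 the first of 3 windows is shown. The Nfkb2 window lies inside the annotated gene, before the start of 1 of its RefSeq transcripts, at chr19:46304487-46304736 on the plus strand, and the Nfkbia window at chr12:55492648-55492897 on the minus strand. The Rel window lies at chr11:23770970-23771219 on the minus strand, the Nfkbie window at chr17:45555450-45555699 on the plus strand, and the Tnfaip3 window at chr10:19015411-19015660 on the minus strand.
Nfkb2: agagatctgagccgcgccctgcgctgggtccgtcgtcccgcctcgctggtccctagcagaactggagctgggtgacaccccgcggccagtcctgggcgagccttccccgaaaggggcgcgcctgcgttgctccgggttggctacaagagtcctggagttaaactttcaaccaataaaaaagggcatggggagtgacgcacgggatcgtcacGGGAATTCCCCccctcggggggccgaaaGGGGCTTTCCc
Nfkbia: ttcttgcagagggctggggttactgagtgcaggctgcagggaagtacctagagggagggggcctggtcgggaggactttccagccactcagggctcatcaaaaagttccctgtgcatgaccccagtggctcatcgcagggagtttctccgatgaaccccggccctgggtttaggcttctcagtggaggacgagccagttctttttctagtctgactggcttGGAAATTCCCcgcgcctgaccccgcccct
Rel: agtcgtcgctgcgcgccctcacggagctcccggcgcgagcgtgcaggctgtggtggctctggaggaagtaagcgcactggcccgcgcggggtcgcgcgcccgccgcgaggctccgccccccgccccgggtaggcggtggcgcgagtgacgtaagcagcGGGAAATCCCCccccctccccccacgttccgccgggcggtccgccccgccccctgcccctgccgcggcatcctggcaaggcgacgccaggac
Nfkbie: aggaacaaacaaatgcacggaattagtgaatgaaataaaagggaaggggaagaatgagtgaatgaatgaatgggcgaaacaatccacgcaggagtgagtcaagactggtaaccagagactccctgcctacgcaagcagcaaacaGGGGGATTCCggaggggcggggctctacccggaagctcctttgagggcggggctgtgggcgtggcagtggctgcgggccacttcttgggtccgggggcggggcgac
Tnfaip3: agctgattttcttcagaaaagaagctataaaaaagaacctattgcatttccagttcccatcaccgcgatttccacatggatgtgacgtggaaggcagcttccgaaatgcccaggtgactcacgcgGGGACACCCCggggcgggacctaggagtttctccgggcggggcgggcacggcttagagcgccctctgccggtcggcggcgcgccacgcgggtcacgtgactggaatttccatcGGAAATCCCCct

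In these windows Nfkb2 held 3 matches, the palindromic GGGAATTCCC 39 bases before the start, which overlaps a second match on the other strand, and GGGGCTTTCC 11 bases before it. Nfkbia held GGGAATTTCC on the opposite strand 29 bases before the start. Rel held GGGAAATCCC with an overlapping match on the other strand, Nfkbie held GGGGGATTCC, and Tnfaip3 held GGGACACCCC and, on the opposite strand, GGGGATTTCC. Rela and Nfkbib held no match of these letters in their windows. Of 27025 mouse genes with a window, 5.14% held at least 1 match to the consensus, against 5 of the 7 members with a window. The interferon-γ-activated site TTCNNNGAA was found in 1 of the 7 members, Nfkb2, and in 9.55% of all genes. With 7 members, this was not read as different from the share of all genes. Nfkb1, Relb and Nfkbiz had no window and were not searched for either motif. The members were taken by name and several are known targets of NF-κB, so the shares of both motifs are a description and not a test. Which signal acts on the members was not tested. Both strands were searched for each motif. A match describes the letters of the window and was not tested for binding.

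Transcript levels of the members spanned a wide range in WT cells. Nfkbia was the highest, with a mean of 531 FPKM, and over all 6 libraries its mean lay above 99.6% of the 13739 genes tested. It was followed by Nfkbiz (90.2 FPKM) and Nfkbie (48.8 FPKM). Tnfaip3 (32.3 FPKM), Nfkb2 (28.6 FPKM), Rela (26.7 FPKM), Nfkbib (20.3 FPKM) and Rel (19.7 FPKM) formed a middle group. Within it Nfkb2 and Rela, and Nfkbib and Rel, overlapped between WT libraries and were not separated by their spread. Nfkb1 (7.77 FPKM) and Relb (4.12 FPKM) were the lowest and stood apart from each other and from the rest. FPKM divides by all annotated exons of a gene, 12061 bases for Nfkb1 against 3072 for Rela, and the transcripts in use were not analysed here.

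**Figure D1:**
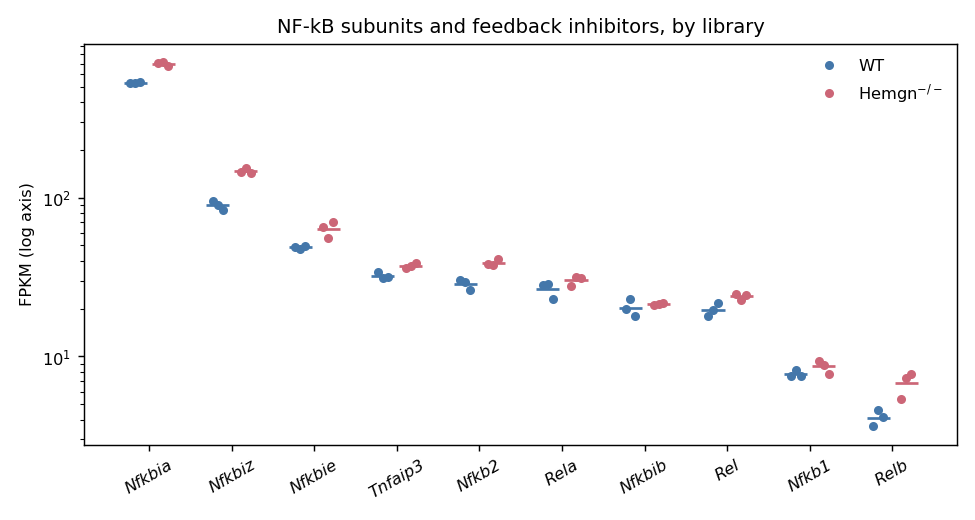
FPKM (log axis) of the 10 members in each of the 3 WT (blue) and 3 Hemgn-/- (red) libraries, with genes ordered by their WT mean and short lines at the group means. Nfkbia sits far above the other genes in every library, and the groups separate for 7 genes and overlap for Rela, Nfkbib and Nfkb1.

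Transcripts of 3 of the 10 members were higher in Hemgn-/- than in WT donor cells at an adjusted p under 0.05, and 0 were lower. They were Nfkbia and Nfkbiz among the inhibitors and Nfkb2 among the subunits. Over all genes tested, 4.37% were higher and 2.09% lower by this rule, 6.46% in all. At an unadjusted p under 0.05, 7 members were higher and 0 lower, against 15% and 6.46% of all genes tested. With limma's voom on the recovered fragments the same 3 members were called higher, against 2.63% of all genes higher and 3.31% lower. All 10 members had a log2 fold change above 0, as did 63.0% of all genes tested, although Nfkbib turned below 0 after median-ratio scaling and with voom. Their median was 0.32 against 0.087 for all genes tested. For 7 members every Hemgn-/- library lay above every WT library, which held for 19.2% of all genes tested, and 0 members had the opposite separation, which held for 8.18%. By the thresholds of the study, an unadjusted p under 0.05 and a 1.5-fold change, Nfkbiz and Relb were higher and 0 members lower, against 4.1% and 2.74% of all genes tested. The test was limma on log2(FPKM + 1). Taken alone, a gene with 3 values per group has a smallest two-sided p of 0.1 by exact permutation.

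**Figure D2:**
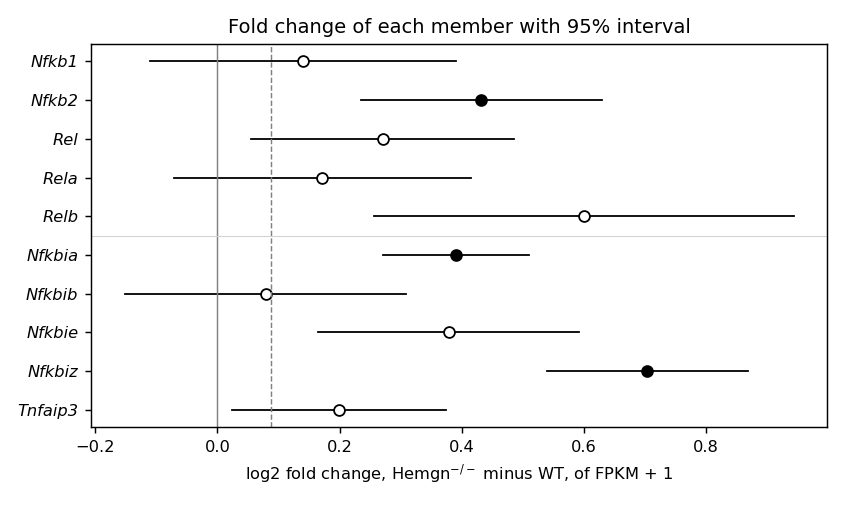
Log2 fold change (Hemgn-/- minus WT) of each member on the scale of FPKM + 1, with its 95% interval from limma, subunits above the grey line and inhibitors below it. Filled points have an adjusted p under 0.05, and the dashed line marks the median of all genes tested, 0.087. The intervals of Nfkb1, Rela and Nfkbib include 0.

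Among the subunits, Nfkb2 rose and the other members of the group were not past the threshold. Nfkb2 (ENSMUSG00000025225, chromosome 19 from 46304320 to 46312385 on the plus strand of GRCm38) encodes the precursor that is processed in the non-canonical pathway. It was at 30.2, 29.6 and 26.0 FPKM in WT and at 38.0, 37.9 and 40.9 FPKM in Hemgn-/- replicates 1, 2 and 3. Every Hemgn-/- library was higher than every WT library. The log2 fold change was 0.43 with a standard error of 0.087, and the Benjamini-Hochberg adjusted p was 0.0227 by limma. The call held in 7 of 15 alternatives and was lost after median-ratio scaling (adjusted p = 0.0627 by limma), quantile normalization (0.0541), without a variance trend (0.0885), with the replicate number as a block (0.0588), and without WT replicate 1 or 3 or Hemgn-/- replicate 2 or 3 (0.0509 to 0.105). The log2 fold change was 0.33 to 0.47 in these 8 fits. Nfkb2 shares 299 exon bases with Psd and 531 with a non-coding gene on the opposite strand, which reads without strand could not separate.

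Relb (ENSMUSG00000002983, chromosome 7 from 19606217 to 19629438 on the minus strand), the usual partner of processed Nfkb2, was at 3.62, 4.60 and 4.15 FPKM in WT and at 5.39, 7.34 and 7.71 FPKM in Hemgn-/- libraries. The groups did not overlap. Its log2 fold change of 0.60 (95% interval 0.26 to 0.94) came after that of Nfkbiz on the log2(FPKM + 1) scale, which shrinks low genes, while the ratios of group means were 1.65 for Relb and 1.63 for Nfkbiz. The adjusted p was 0.0524 from limma. As the member with the fewest fragments, 333 to 866 per library, it carried a counting error of up to 5.48%, against a spread of 18.3% between Hemgn-/- replicates. With 1 library left out the adjusted p ranged from 0.0290 (without Hemgn-/- replicate 1, the lowest of its group) to 0.181, and the other 5 of these fits were not past the threshold.

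Rel (ENSMUSG00000020275, chromosome 11 from 23736847 to 23770970 on the minus strand) encodes c-Rel, a subunit used mainly by lymphoid and myeloid cells. It was at 18.0, 19.5 and 21.7 FPKM in WT and at 24.8, 22.8 and 24.3 FPKM in Hemgn-/- libraries. The groups were separated by a narrow gap, and the log2 fold change of 0.27 (95% interval 0.056 to 0.49) had an adjusted p of 0.142 from limma.

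Rela (ENSMUSG00000024927, chromosome 19 from 5637483 to 5648130 on the plus strand) encodes the main activating subunit of the canonical pathway. It was at 28.3, 28.7 and 23.1 FPKM in WT and at 27.6, 31.5 and 31.3 FPKM in Hemgn-/- libraries, and the groups overlapped. Nfkb1 (ENSMUSG00000028163, chromosome 3 from 135584655 to 135691547 on the minus strand), which encodes the precursor of the usual Rela partner, was at 7.49, 8.25 and 7.57 FPKM in WT and at 9.42, 8.87 and 7.75 FPKM in Hemgn-/- libraries. These groups overlapped as well. The 95% intervals of the log2 difference were −0.071 to 0.41 for Rela (adjusted p = 0.406 from limma) and −0.11 to 0.39 for Nfkb1 (adjusted p = 0.513 from limma), so that differences of these sizes remain possible for both.

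Among the inhibitors, Nfkbiz and Nfkbia rose. Nfkbiz (ENSMUSG00000035356, chromosome 16 from 55811375 to 55838899 on the minus strand) encodes IκBζ, an atypical IκB protein of the nucleus that can activate as well as inhibit NF-κB targets. It was at 95.9, 90.5 and 84.1 FPKM in WT and at 145, 154 and 144 FPKM in Hemgn-/- libraries. Every Hemgn-/- library was far above every WT library, with the widest relative gap between groups of the members. The log2 fold change was 0.70 with a standard error of 0.072 and an adjusted p of 0.00132 by limma, and the call held under all 15 alternatives, with an adjusted p from 0.000226 to 0.0268.

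Nfkbia (ENSMUSG00000021025, chromosome 12 from 55489410 to 55492647 on the minus strand) encodes IκBα, the classical feedback inhibitor. It was at 529, 530 and 535 FPKM in WT and at 704, 714 and 674 FPKM in Hemgn-/- libraries. WT replicates differed by a coefficient of variation of 0.578%, the lowest of the members and below the counting error of up to 0.704%. Hemgn-/- replicates differed by 2.94%. The lowest Hemgn-/- library was at 1.26 times the highest WT library. The log2 fold change was 0.39 (standard error 0.052, adjusted p = 0.00417 from limma), and it was past the threshold in 14 of 15 alternatives, the exception being limma without a variance trend (adjusted p = 0.0796).

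Nfkbie (ENSMUSG00000023947, chromosome 17 from 45555703 to 45563169 on the plus strand), the gene of IκBε, was at 48.8, 47.5 and 49.9 FPKM in WT and at 65.8, 55.8 and 70.3 FPKM in Hemgn-/- libraries. Hemgn-/- replicate 2 was the lowest of its group and still above all WT libraries. The log2 fold change was 0.38 (95% interval 0.16 to 0.59) with an adjusted p of 0.0502 from limma. With 1 library left out the adjusted p was 0.0236 without Hemgn-/- replicate 2 and 0.109 to 0.182 in the other 5 fits.

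Tnfaip3 (ENSMUSG00000019850, chromosome 10 from 19000910 to 19015657 on the minus strand) encodes a ubiquitin-editing enzyme that ends signaling from cytokine receptors upstream of NF-κB. It was at 33.8, 31.2 and 31.9 FPKM in WT and at 35.98, 37.0 and 38.7 FPKM in Hemgn-/- libraries. The groups did not overlap but lay close, with a log2 fold change of 0.20 (95% interval 0.025 to 0.37, adjusted p = 0.180 from limma).

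Nfkbib (ENSMUSG00000030595, chromosome 7 from 28758251 to 28767512 on the minus strand), the gene of IκBβ, was at 20.04, 22.9 and 18.0 FPKM in WT and at 21.1, 21.3 and 21.7 FPKM in Hemgn-/- libraries. The Hemgn-/- values lay inside the WT range. Its log2 fold change of 0.079 (95% interval −0.15 to 0.31, adjusted p = 0.696 from limma) turned to −0.020 after median-ratio scaling and to −0.018 with voom. Nfkbib shares 42 exon bases with Sirt2 and 314 with Ccer2 on the opposite strand.

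The choice of scaling between libraries moved the fold changes of the members. Median-ratio scaling, which put the median of all genes tested at 0.0068 in place of 0.087, gave log2 fold changes of 0.60 for Nfkbiz, 0.29 for Nfkbia, 0.33 for Nfkb2 and 0.51 for Relb. Setting all libraries to an equal FPKM total, as TPM does, put that median at 0.18 and gave 0.80, 0.48, 0.53 and 0.75 for the same genes. Voom, which adds no pseudocount of 1 FPKM, gave 0.61, 0.29, 0.34 and 0.61. Nfkbiz and Nfkbia were past the threshold under each of the 5 scalings, Nfkb2 under 3 of them, and Relb and Nfkbie under the same-total scaling only. Over all genes tested, the calls were 600 higher and 287 lower on the deposited values, 341 higher and 386 lower after median-ratio scaling, and 1049 higher and 238 lower at the same total.

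**Figure D3:**
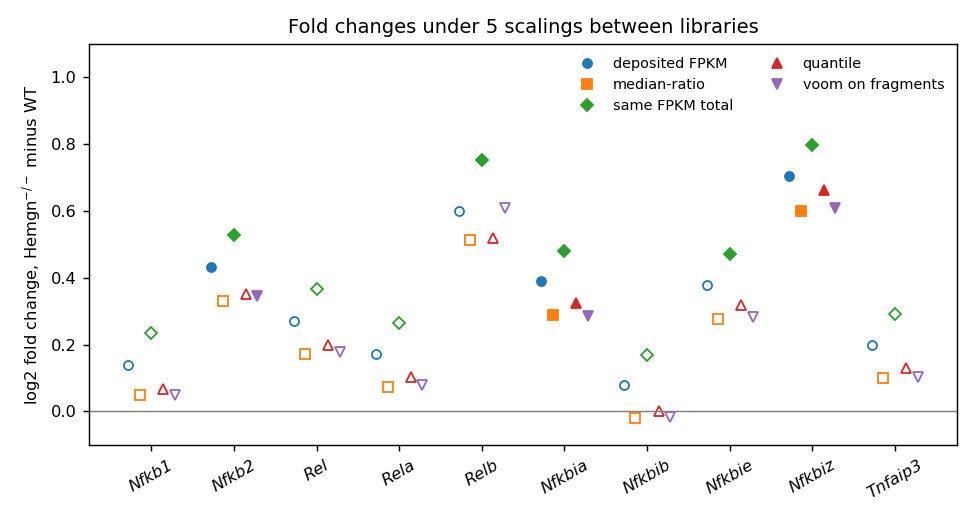
Log2 fold change (Hemgn-/- minus WT) of each member under 5 scalings between libraries, with filled markers where the adjusted p is under 0.05. Nfkbiz and Nfkbia are filled under each scaling, and Nfkbib crosses 0 under median-ratio scaling and voom.

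Ratios between members within a library do not depend on a scaling factor of that library, and they were taken relative to Rela after the values had been seen. Nfkbiz was at 3.38, 3.15 and 3.63 times the Rela FPKM in WT and at 5.24, 4.88 and 4.58 times in Hemgn-/- libraries. Nfkb2 was at 1.03 to 1.13 times Rela in WT and at 1.20 to 1.38 times in Hemgn-/- libraries. Relb was at 0.128 to 0.179 times Rela in WT and at 0.195 to 0.246 times in Hemgn-/- libraries. For these 3 genes every Hemgn-/- ratio was above every WT ratio, and for the other 6 the ratios overlapped. The share of all genes with such a separation relative to Rela was not counted, so the 3 genes have no background to be read against. Nfkbia was among the latter, with 18.5 to 23.1 in WT and 21.5 to 25.5 in Hemgn-/- libraries. A ratio shows unequal change of both genes and not which of them changed.

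**Figure D4:**
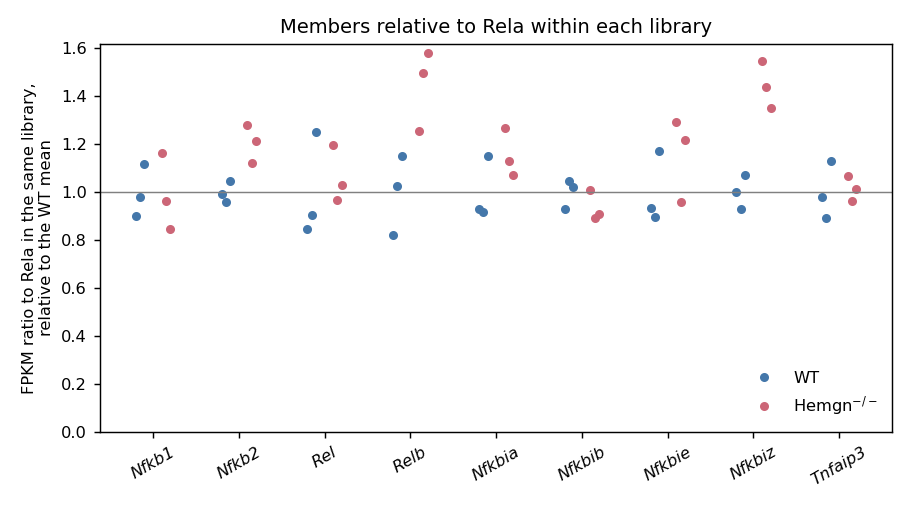
FPKM ratio of each of 9 members to Rela in the same library, divided by the WT mean of that ratio, for 3 WT (blue) and 3 Hemgn-/- (red) libraries. The groups separate for Nfkb2, Relb and Nfkbiz and overlap for the other genes.

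Summed over genes, the 5 subunits stood at 87.7, 90.7 and 82.6 FPKM in WT and at 105, 108 and 112 FPKM in Hemgn-/- libraries. The 5 inhibitors stood at 728, 722 and 719 FPKM in WT and at 972, 981 and 949 FPKM in Hemgn-/- libraries. Both sums were higher in every Hemgn-/- library, while the inhibitor sum was 7.96 to 8.71 times the subunit sum in WT and 8.48 to 9.23 times in Hemgn-/- libraries, which overlapped. Nfkbia supplied 72.7% to 74.4% of the inhibitor sum in WT and 71.1% to 72.7% in Hemgn-/- libraries.

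The other genes of the pathway were read from 5 lists, which were chosen with earlier results of these data known. Upstream of the members, 4 of 14 receptor genes tested were higher and 0 lower at an adjusted p under 0.05 from limma. Over all genes tested, 4.37% were higher and 2.09% lower by this rule. The median log2 fold change of the receptors was 0.39. At an unadjusted p under 0.05, 9 receptor genes were higher and 0 lower, against 15% and 6.46% of all genes tested. Tlr1, a subunit of the receptor for bacterial lipopeptides, rose from 7.49 ± 0.809 FPKM (WT) to 13.2 ± 2.22 FPKM (Hemgn-/-, SD, n = 3 each), and its partner Tlr2 from 70.1 ± 3.61 to 92.6 ± 1.48 FPKM. Cd40, a costimulatory receptor of B cells and other antigen-presenting cells, rose from 12.7 ± 2.44 to 21.1 ± 0.779 FPKM, and Tnfrsf13c, the B cell receptor for the survival factor BAFF, from 78.0 ± 3.03 to 106 ± 2.27 FPKM. Both signal to the non-canonical pathway. Of the 8 B cell markers, 4 were called higher and 0 lower in the same libraries, as given above. Ebf1 and Vpreb3 of that list had log2 fold changes of −0.044 and −0.23, not past the threshold. The part of B cells in these receptor changes was not tested. Without Hemgn-/- replicate 3, 1 receptor gene was called.

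Between receptors and subunits lie kinases, adaptors and regulators. Of 10 genes of the IKK complex and its activating kinases, 1 was higher and 0 lower at an adjusted p under 0.05 from limma, with a median log2 fold change of 0.13. It was Ikbkb, the catalytic kinase that marks IκB, with 7.90 ± 0.375 FPKM (WT) against 10.7 ± 0.399 FPKM (Hemgn-/-, SD, n = 3 each). Its adjusted p was 0.0486 by limma, and the call held in 3 of 15 alternatives, none of them a fit with 1 library left out. Of 17 adaptors and ubiquitin ligases, 2 were higher and 0 lower, against 4.37% and 2.09% of all genes tested. The median of this list was 0.12. Myd88, the adaptor of Toll-like and IL-1 receptors, rose from 76.7 ± 4.52 to 102 ± 6.75 FPKM, and Rbck1, a part of the linear ubiquitin ligase from 17.1 ± 0.263 to 23.5 ± 1.88 FPKM. Neither was called without WT replicate 3 or without Hemgn-/- replicate 2 or 3, and 1 of them without WT replicate 1 or 2. Of 12 other IκB proteins and negative regulators, 1 was higher and 0 lower, with a median of 0.22. It was Nfkbid, an atypical IκB gene, at 122 ± 9.99 and 150 ± 1.73 FPKM with an adjusted p of 0.0491 from limma, and the call held in 3 of 15 alternatives, none of them a fit with 1 library left out. At an unadjusted p under 0.05, 1 of the 10 IKK genes, 5 of the 17 adaptors and ligases and 4 of the 12 other regulators were higher and 0 lower, against 15% and 6.46% of all genes tested. The share called higher was 10% of the IKK list, 11.8% of the adaptors and ligases and 8.33% of the other regulators, against 4.37% of all genes. With 1 or 2 calls per list, none of these shares was read as set apart from that of all genes.

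Among genes known as NF-κB targets, 14 of 27 were higher and 1 was lower at an adjusted p under 0.05 from limma. Over all genes tested, 4.37% were higher and 2.09% lower by this rule. These 27 genes were chosen with earlier results of these data known, so the difference from that share is a description and not a test. The median log2 fold change of the targets was 0.43. After median-ratio scaling and with voom, 9 targets were higher and 1 lower, against 2.63% and 3.31% of all genes with voom. Cxcl10, an interferon-inducible chemokine, rose by 1.32 on the log2 scale, and Ccl2, a chemokine for monocytes, rose from 12.3 ± 3.21 FPKM (WT) to 25.5 ± 2.92 FPKM (Hemgn-/-, SD, n = 3 each). Icam1, an adhesion molecule for leukocytes, rose from 15.9 ± 2.03 to 26.3 ± 0.425 FPKM, and Irf1, a transcription factor induced by interferon-γ as well as by NF-κB, by 0.75 on the log2 scale. The other higher genes were Cd83, Il1b, Ccnd1, Gadd45b, Tnf, Birc3, Ptgs2, Cxcl2, Cd69 and Junb, with log2 fold changes from 0.29 to 0.66. Plaur, the urokinase receptor of myeloid cells, fell from 984 ± 58.1 to 714 ± 56.8 FPKM. The count was 7 without Hemgn-/- replicate 3 and 9 without WT replicate 1. Markers of several other cell types moved in the same libraries, as given above, and their part in these counts was not tested.

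**Figure D5:**
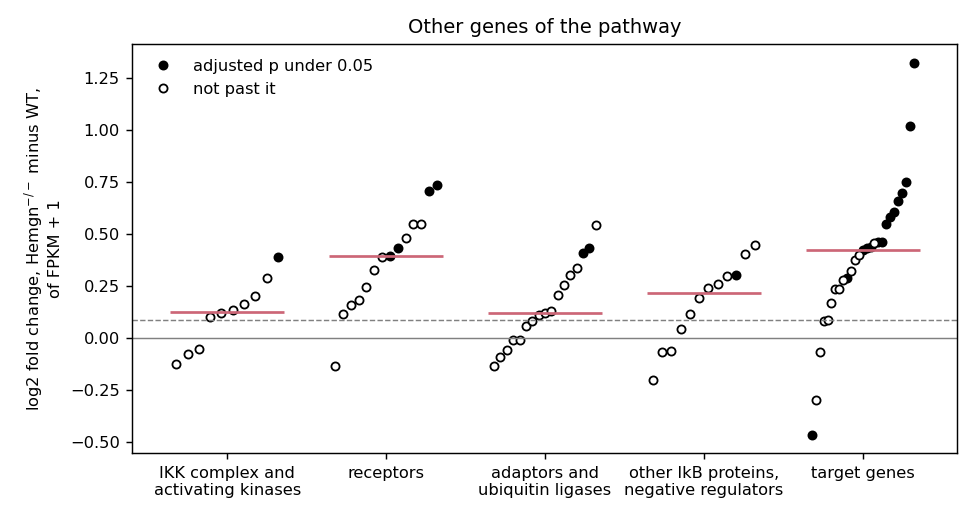
Log2 fold change (Hemgn-/- minus WT, on the scale of FPKM + 1) of every tested gene in 5 lists, with filled points at an adjusted p under 0.05 and red lines at list medians. The dashed line is the median of all genes tested, 0.087, and the target list runs from −0.46 (Plaur) to 1.32 (Cxcl10).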

How the data were processed

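Sorted donor cells in 3 WT and 3 Hemgn-/- libraries were compared. The authors deposited FPKM values per gene and library. Per the labels, the submitters' notes name the build GRCm38 and the tools Bowtie2 2.2.3, HISAT2 2.1.0, TopHat2 and HTSeq 0.6.0, and the role of each and the annotation are not given in the sources used here. Of 24965 genes, 24921 were matched to GENCODE M21 for symbols and exon lengths. The depth was recovered from the FPKM steps, which made the values of 95.7% of 13476 low genes (100 fragments or fewer) whole to within 0.05, and counting error covers sampling of amplified fragments only.

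The 13739 genes that passed 1 FPKM in any library were compared as log2(FPKM + 1) with limma 3.58.1 in R 4.3.3 (eBayes with a trend, no covariate, two-sided, Benjamini-Hochberg over all genes tested). The replicates are described as biological in the study's methods. The members, lists and tests were chosen with earlier results of these data known. Named genes were the members, Hemgn and, per list, up to 4 genes in each direction with the largest change among those called without overlap, and the 10 further targets were named after their values were seen. Alternatives were a pseudocount of 0.1, filters (FPKM above 0, or a mean of at least 1), median-ratio, same-total and quantile scaling, no trend, the replicate number as a block, limma's voom on recovered fragments with TMM factors computed by their published formula, the thresholds of the study (p under 0.05 and 1.5-fold) and leaving out each library. The counts out of 15 alternatives per gene leave out the thresholds of the study. The fit was tested on simulated data. An item of a marker list is not reported here. The windows and motif shares come from RefSeq promoters of GRCm38.p6. Python 3.11.15 was used for other steps.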

Additional observations from a re-analysis of the deposited data

How the results depend on the processing

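The count of members called was 3 on the deposited values, 5 at the same FPKM total, 1 without a variance trend and 2 to 4 with 1 library left out. It was 2 with the replicate block, which lost Nfkb2 (adjusted p = 0.0588). Same-numbered libraries did not deviate together over the genes tested (correlations −0.043, −0.0094 and 0.011). These correlations averaged over all genes showed no pairing by number, and shared handling by number was not tested. With the block 636 of all genes were called against 887. That count was 466 with genes at any FPKM above 0, 390 without a trend, and 373 to 688 with 1 library left out. Leaving out WT replicate 1 gave 470, WT replicate 3 gave 494, Hemgn-/- replicate 2 gave 525 and Hemgn-/- replicate 3 gave 373. Of 13739 genes, 1287 were called at the same total, 727 after median-ratio scaling, 714 with quantile scaling and 939 under the study's thresholds. With a pseudocount of 0.1 the count was 856, and with voom it was 815 of 13723 genes.

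The call of the IKK list fell from 1 to 0, with 1 gene at an unadjusted p under 0.05 by limma, under a pseudocount of 0.1, the FPKM filter above 0, median-ratio and quantile scaling, no trend, the block and the study's thresholds, and with any library left out it was 0, with 1 or 2 genes at an unadjusted p under 0.05. The call of the other negative regulators fell from 1 to 0, with 2 to 4 genes at an unadjusted p under 0.05, under the FPKM filter above 0, median-ratio and quantile scaling, no trend, the block, voom, the study's thresholds and each library left out. Receptors called went from 4 to 2 with the FPKM filter above 0 and under the study's thresholds, 8 at the same total, 0 without a trend (8 at an unadjusted p under 0.05) and 1 to 5 with 1 library left out. Adaptors went from 2 to 1 with the FPKM filter above 0, quantile scaling, the block and voom, 5 at the same total, 0 after median-ratio scaling, without a trend and under the study's thresholds (3 to 5 at an unadjusted p under 0.05), and 0 to 2 with 1 library left out. Targets went from 15 to 7 with the FPKM filter above 0, 5 without a trend, 6 under the study's thresholds and 7 to 13 with 1 library left out. The count over all genes tested moved under the same settings, as given above, so these shifts are not particular to the lists. The cause of these shifts was not tested.

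Of the members, only Nfkbib changed direction, to −0.020 after median-ratio scaling, −0.018 with voom and, with 1 library left out, −0.0014 (without WT replicate 3) to 0.16. The counting error was at most 5.48% for any member, which leaves out losses before amplification, and no limit from input was tested.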
